A study of Mus musculus with 14 samples.

Results

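The Hox genes of the 4 clusters were followed through the Atoh1 lineage of the mouse hindbrain. The members were every row of the gene list whose symbol was Hox followed by a, b, c or d and a number, which gave 40 rows of 31054, with 39 symbols, because Hoxd4 is listed under a pair of gene identifiers. HoxA holds 11 rows, HoxB 10, HoxC 9 and HoxD 10. In the annotation that was matched to the files (GENCODE M21 on GRCm38), the rows with coordinates lie on chr6 for HoxA and span chr11:96194316-96368256 for HoxB, chr15:102921103-103036852 for HoxC and chr2:74668310-74765142 for HoxD. In 8 pairs of neighbors (within Hoxa3 to Hoxa6, within Hoxc5 to Hoxc10, and Hoxd3 with 1 Hoxd4 row) the annotated genes overlap on the same strand, so the split of reads between those neighbors is uncertain.

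Hox genes encode homeodomain transcription factors. Within each cluster they are numbered by position into paralog groups, low numbers are active from the hindbrain onward, and higher numbers begin progressively more caudally, so the combination of paralogs in a neuron records its origin along the rostrocaudal axis. Atoh1 is the basic helix-loop-helix factor of the rhombic lip, which gives rise to neurons of the pontine nuclei (PN), other precerebellar nuclei and the auditory brainstem, and, from a rostral part that lies ahead of the Hox domain, to cerebellar granule cells. PN neurons are born caudally and migrate rostrally around the brainstem, and their Hox code is known to differ with the position of birth.

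All mice were C57BL/6J and cells were sorted for tdTomato switched on by Cre at the Atoh1 locus (Atoh1 Cre/+; Rosa lsl-tdTomato/+ in controls). Because Cre replaces the coding sequence, the controls also have 1 null Atoh1 allele. The mutants, named Atoh1 S193A/-, carry Cre on 1 allele and the S193A change of a phosphorylated serine on the other (Atoh1 Cre/S193A; Rosa lsl-tdTomato/+). At E14.5 and E18.5, labeled DAPI-negative hindbrain cells of 3 control and 3 mutant embryos were sorted, 1 embryo per library, and a mutant and a control with the same replicate number were littermates. At P5, PN were dissected from control pups only, pooled within each of 2 libraries. Counting of 3′ ends does not read the S193A change, so the allele itself could not be read from the counts. A Cre of this kind marks every descendant of a cell that once expressed Atoh1. The P5 libraries also held clusters led by Aqp4, by Mbp and by C1qa, genes of astroglia, oligodendrocytes and microglia. The E14.5 libraries held clusters with Ttr or Gad2 among their leading genes. Whether the cells of these clusters descend from cells that expressed Atoh1 was not tested.

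The promoters of 5 members on which the results turn are printed to show what lies upstream of genes of paralog groups 2, 4, 5 and 8. Each run is the 250 bases before the annotated start, 5′ to 3′, from RefSeq on GRCm38.p6. Capitals mark TGATNNAT, a form of the composite site that Hox proteins bind together with Pbx partners, or AGGTCA, a half-site of nuclear receptors such as those for retinoic acid, each searched on both strands. The windows are chr6:52164832-52165081 on the minus strand for Hoxa2, chr11:96318017-96318266 on the plus strand for Hoxb4, chr15:103034145-103034394 on the plus strand for Hoxc4, chr6:52204588-52204837 on the minus strand for Hoxa5 and chr11:96281655-96281904 on the plus strand for Hoxb8. The RefSeq start used for Hoxc4 lies inside the gene as GENCODE M21 draws it, so its window is not upstream of the GENCODE start.
Hoxa2: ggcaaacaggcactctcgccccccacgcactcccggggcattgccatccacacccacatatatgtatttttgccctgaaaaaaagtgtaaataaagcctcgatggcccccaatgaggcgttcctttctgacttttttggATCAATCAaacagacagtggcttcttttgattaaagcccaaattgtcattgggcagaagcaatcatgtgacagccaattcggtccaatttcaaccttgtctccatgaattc
Hoxb4: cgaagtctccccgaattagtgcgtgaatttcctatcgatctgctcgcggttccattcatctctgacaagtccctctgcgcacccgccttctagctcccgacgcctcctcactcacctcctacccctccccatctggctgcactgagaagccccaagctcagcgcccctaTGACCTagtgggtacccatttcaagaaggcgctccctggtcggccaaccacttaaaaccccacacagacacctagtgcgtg
Hoxc4: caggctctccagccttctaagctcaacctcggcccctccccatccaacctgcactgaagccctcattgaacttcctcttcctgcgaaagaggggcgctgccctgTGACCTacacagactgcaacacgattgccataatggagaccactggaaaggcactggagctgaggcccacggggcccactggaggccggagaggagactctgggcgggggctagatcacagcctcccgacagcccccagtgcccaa
Hoxa5: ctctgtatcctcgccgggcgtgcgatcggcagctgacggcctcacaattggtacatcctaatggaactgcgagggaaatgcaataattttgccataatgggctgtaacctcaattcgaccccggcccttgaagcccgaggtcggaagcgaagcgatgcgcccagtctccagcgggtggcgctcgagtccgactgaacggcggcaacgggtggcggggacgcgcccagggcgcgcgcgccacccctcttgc
Hoxb8: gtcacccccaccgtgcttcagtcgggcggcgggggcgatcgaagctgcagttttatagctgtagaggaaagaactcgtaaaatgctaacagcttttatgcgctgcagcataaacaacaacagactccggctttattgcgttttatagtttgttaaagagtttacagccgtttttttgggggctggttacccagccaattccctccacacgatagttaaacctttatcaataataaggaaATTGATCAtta
The TGATNNAT match begins 111 bases before the start of Hoxa2 and 11 bases before that of Hoxb8. AGGTCA begins 81 bases before the start of Hoxb4 and 146 bases before that of Hoxc4, and neither motif is in the Hoxa5 window. TGATNNAT was in 4 of 24 Hox entries and in 7.68% of 32851 promoters of the same length, and AGGTCA in 6 of 24 Hox entries and in 14.02% of all promoters. Promoters were found for 22 of the 39 Hox symbols, and Hoxb2, Hoxb3 and Hoxb5 are named only. A match of letters is a description of the window and was not tested as a binding site.

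The 14 libraries held between 7972 and 15821 barcodes, of which 3248 to 8726 per library were kept (at least 1000 genes, under 5% mitochondrial unique molecular identifiers (UMIs), and no high doublet score). Kept cells carried between 59993081 and 185029057 UMIs per library, 4899 to 157914 of them from Hox genes. Pairs of libraries shared 13 to 67 barcodes, at most 0.624% of the smaller set. Levels are given as UMIs of a gene per 1000000 UMIs of the summed cells (CPM), a level on a linear scale. Since 1 3′ end is counted per transcript, these levels do not scale with transcript length, although capture can differ between genes. Of the 40 rows, 5 had no UMI in any library, 14 had fewer than 100 over all libraries and 19 had more than 1000. One library stood apart in the members themselves. In E14.5 mutant replicate 2, the summed level of paralog groups 6 to 9 was 21.3 CPM, whereas the other E14.5 libraries held 70.4 to 282 CPM, and results that rest on it are given with and without it.

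Clusters were made at each stage without Hox genes, and classes were set from other markers. PN-like clusters had Pax6 and Crabp1 with little En2, Lhx2 or Eomes, and granule-like clusters had Pax6, Barhl1 and En2. PN-like cells made up 15.6 to 26.2% of kept cells in E14.5 controls, 7.40 to 17.1% in E18.5 controls and 51.4 and 52.5% in the P5 libraries. Granule-like cells, whose origin lies ahead of the Hox domain, were used as the low-level comparison. Their summed Hox level was 43.7 ± 9.3 CPM (SD, n = 3) in E14.5 controls and 11.1 ± 4.35 CPM in E18.5 controls, against 2845 ± 348 CPM and 896 ± 89.8 CPM in the PN-like cells of the same libraries. At E18.5, 2 of the 16 granule-like clusters held a weak code of group 2, described later, and without them the granule-like level was 7.59 ± 3.97 CPM. In the P5 libraries PN-like cells held 334 and 321 CPM. With a finer clustering (Leiden resolution 2.0) the E18.5 PN-like class held 301, 358 and 542 control cells in place of 395, 502 and 836. Its Hox level was then 1218, 1084 and 1036 CPM in place of 993, 881 and 815 CPM. At E14.5 the class held 851, 957 and 1488 control cells in place of 850, 990 and 1483. The shares of cells and the stage comparison in PN-like cells below used the main clustering only.

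**Figure D1:**
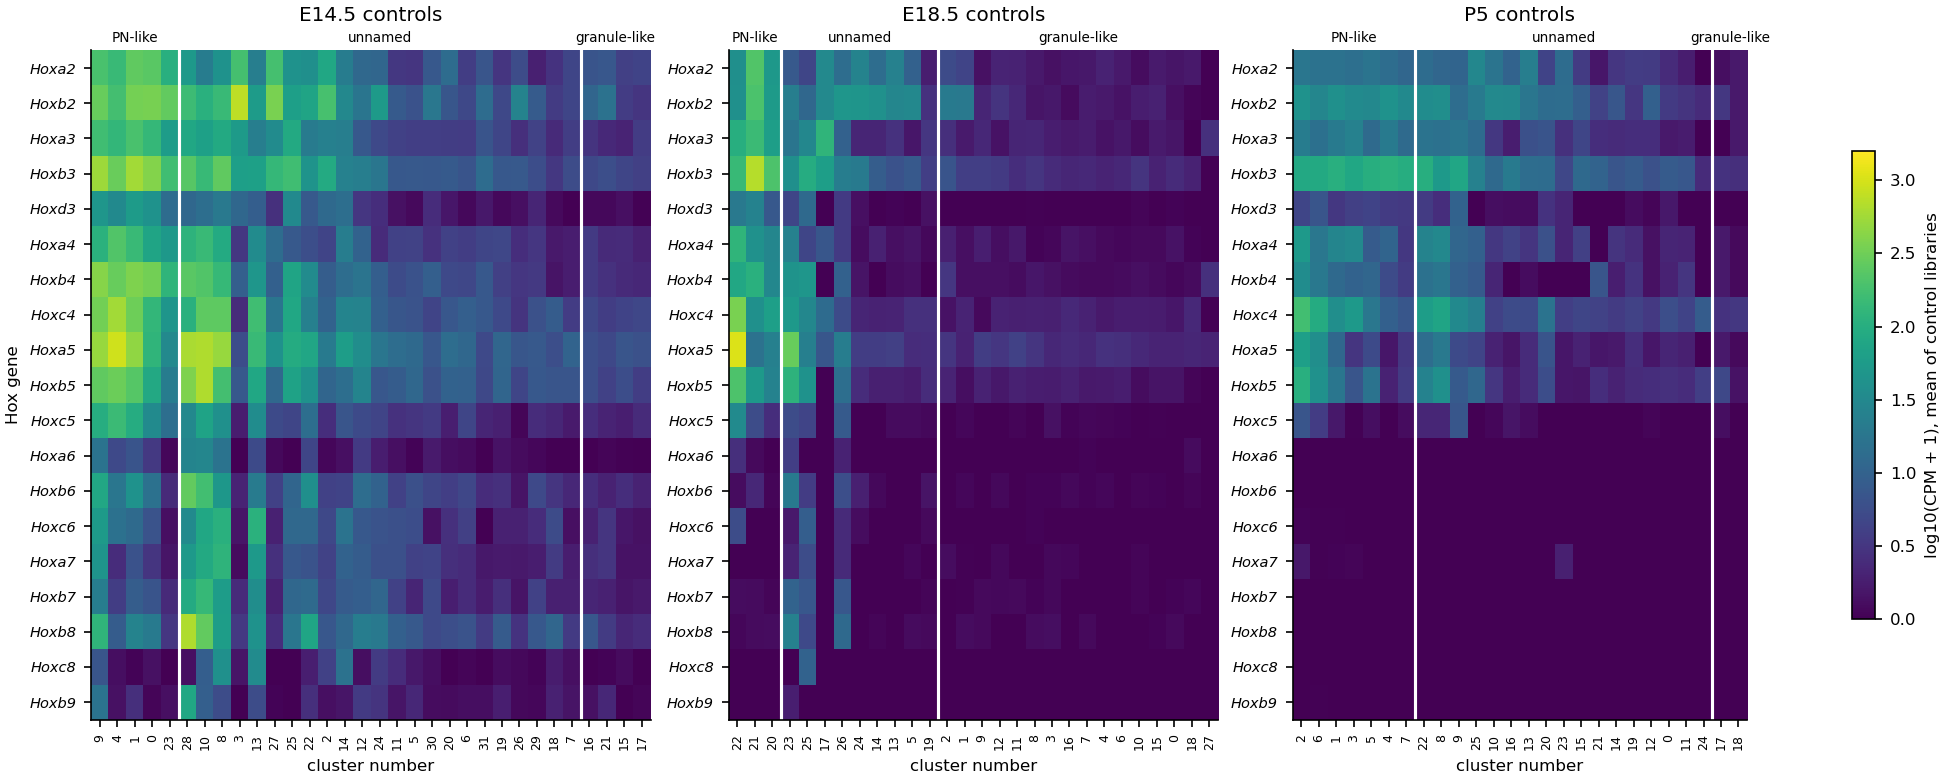
Level of the 19 Hox genes with more than 1000 UMIs (rows, ordered by paralog group) in every cluster (columns) of the control libraries at E14.5, E18.5 and P5, as log10(CPM + 1) of the mean over libraries with at least 10 cells in the cluster. PN-like clusters stand at the left, granule-like clusters at the right and unnamed clusters between them, each ordered by summed Hox level. At E14.5 16 of 32 clusters hold more than 200 CPM, and at E18.5 6 of 28 do.

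In the E14.5 controls, the paralog code differed among the 5 PN-like clusters. Cluster 23, led by the cell cycle gene Ccnd1 and the Id genes Id3 and Id1, held the lowest summed Hox level of the PN-like cells, 904 ± 174 CPM (SD, n = 3), and 41.8% of its Hox UMIs came from paralog group 2. In cluster 0, led by S100a6, Gadd45g and Atoh1 itself, the summed level was 1985 ± 172 CPM, with 29.6% from group 2 and 11.9% from group 5. Clusters 1 and 9, both led by Crabp1 and Robo3, markers of migrating precerebellar neurons, reached 3140 ± 196 CPM and 3335 ± 535 CPM (n = 2 libraries each with at least 10 cells), with 25.0% and 25.5% from group 5. Cluster 4, led by Cnr1 and Kctd12, held 3266 ± 662 CPM (n = 3), and there group 5 gave 41.4% and group 2 10.1%. The mean paralog number, each Hox UMI weighted by its number, was 2.99 ± 0.14, 3.31 ± 0.28, 3.69 ± 0.05, 4.06 ± 0.24 and 4.10 ± 0.13 in clusters 23, 0, 1, 9 and 4. Clusters 1 and 9 divided by library, since cluster 9 was mostly control and mutant replicate 2. These are descriptions of clusters, with no test.

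Single members carried the shift. Hoxa5, which patterns the caudal hindbrain and cervical cord, stood at 39.4, 46.7 and 7.27 CPM in control replicates 1, 2 and 3 in cluster 23, and at 865, 1211 and 685 CPM in cluster 4. Hoxc4, its neighbor group on HoxC, stood at 48.6, 66.6 and 21.8 CPM in cluster 23 and at 577, 663 and 445 CPM in cluster 4. For both genes the lowest control library in cluster 4 was above the highest in cluster 23. Hoxb2, a direct target of Egr2 in early rhombomeres, went the other way, from 339, 242 and 230 CPM in cluster 23 to 200, 159 and 161 CPM in cluster 4. Hoxb3 peaked between them, with 582 and 543 CPM in cluster 1 against 153, 197 and 149 CPM in cluster 23 and 302, 318 and 270 CPM in cluster 4. Hoxb4 was at 126, 154 and 87.3 CPM in cluster 23 and at 263, 388 and 205 CPM in cluster 4. Hoxb5 was at 29.6, 21.5 and 11.9 CPM in cluster 23 and at 279, 426 and 208 CPM in cluster 4.

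**Figure D2:**
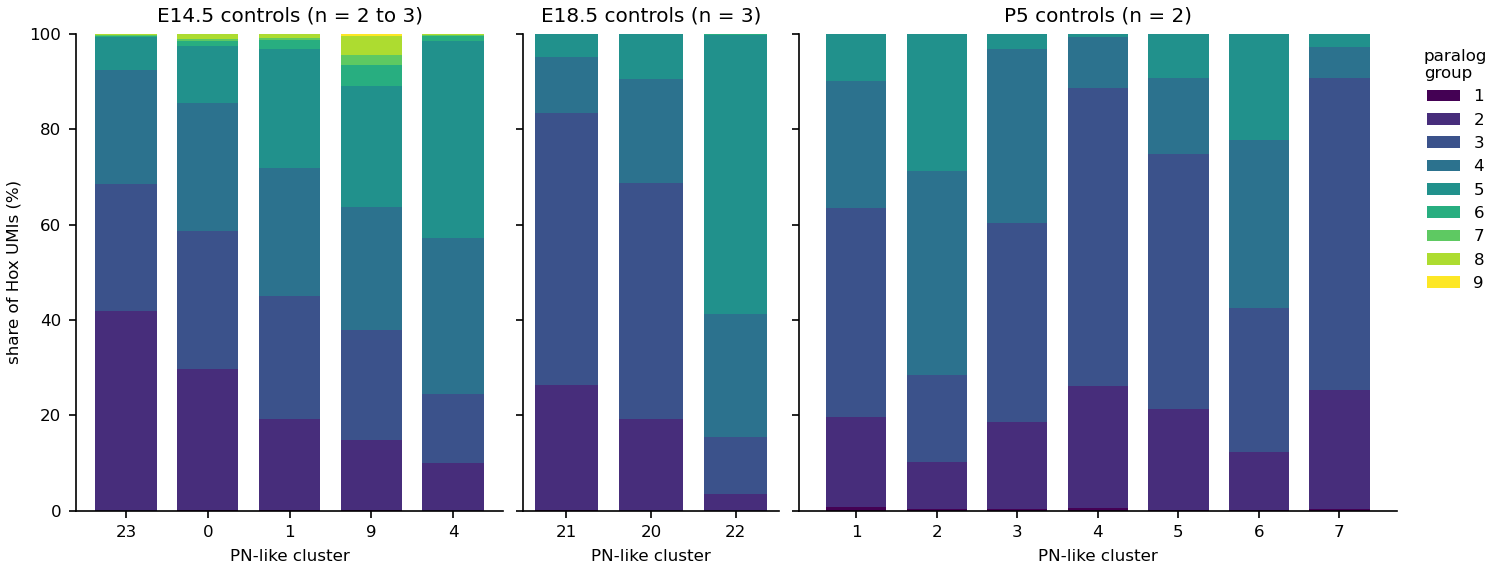
Share of Hox UMIs (percent) from each paralog group in the PN-like clusters of control libraries, as the mean over libraries. At E14.5 the clusters run from cluster 23 to cluster 4, and group 2 goes from 41.8% to 10.1% while group 5 goes from 6.85% to 41.4%. At E18.5 cluster 22 and at P5 cluster 2 hold the largest shares of group 5 (58.5% and 28.6%).

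Outside the PN-like cells, E14.5 clusters carried distinct codes. Cluster 3, led by Hsd11b2, Pvalb and Olig3, used group 2 for 85.4% of its Hox UMIs, with Hoxb2 at 823, 810 and 669 CPM and Hoxa2 at 203, 178 and 165 CPM in the 3 controls. Hoxa2, the selector gene of the second pharyngeal arch, is the most rostrally expressed Hox gene of the hindbrain. Cluster 27, with Atoh7 and Lhx2 among its leading genes, took 66.3% of Hox UMIs from group 2. Cluster 10, led by Tshz2 and Foxb1, had Hoxb5 at 763, 525 and 694 CPM and Hoxa5 at 736, 557 and 682 CPM in the controls, and group 5 made up 44.2% of its Hox UMIs. The most caudal code was in cluster 28, led by Tfap2b, Npy, Gad2 and Pax2, with a mean paralog number of 5.38 ± 0.08 (SD, n = 3). In it Hoxb8, a gene of caudal hindbrain and spinal cord, stood at 888, 570 and 539 CPM in control replicates 1, 2 and 3. Hoxa5 stood at 828, 350 and 691 CPM there, below Hoxb8 in 2 of the 3 libraries. Of the 32 clusters 15 held less than 100 CPM, the granule-like clusters among them.

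At E18.5 the PN-like cells fell into 3 clusters with different codes. In cluster 21, led by Crabp1 and Robo3, Hoxb3 was at 732, 662 and 715 CPM in the controls and group 3 made up 56.9% of Hox UMIs. In cluster 20, led by Cntnap5a and Lmo4, which held most PN-like cells, Hoxb3 was at 206, 200 and 199 CPM, the summed level was 544 ± 21.9 CPM (SD, n = 3) and group 3 made up 49.4%. In cluster 22, led by Cadm2 and Rnf152, Hoxa5 was at 1042, 1281 and 871 CPM, Hoxc4 at 362, 393 and 326 CPM and Hoxb5 at 195, 252 and 153 CPM. Hoxa5 was at no more than 28.2 CPM in any control library in cluster 20 or 21. In each control library Hoxa5 was thus higher in cluster 22 than in clusters 20 and 21. Cluster 23, unnamed and led by Zfhx3, Meis2 and Sst, also had group 5 at 57.8% of Hox UMIs, with Hoxa5 at 262, 92.1 and 511 CPM.

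A weaker code of paralog group 2 was found in 6 E18.5 clusters. Clusters 1, 2, 5, 13, 14 and 24 were chosen after their values were seen. They took 64.1 to 79.3% of their Hox UMIs from group 2, at a control mean of 29.5 to 101 CPM. The 14 granule-like clusters apart from 1 and 2 took 0 to 29.8%, at a control mean of 4.64 to 11.6 CPM. Nts led clusters 1 and 5, Cenpa led cluster 2, Bcl11b led clusters 13 and 24, and Eomes, a marker of unipolar brush cells, led cluster 14. Summed over the 6 clusters, Hoxb2 was at 24.8, 24.9 and 28 CPM in control replicates 1, 2 and 3. It was at 26.7, 6.30 and 6.38 CPM in mutant replicates 1, 2 and 3. Mutant replicates 2 and 3 lay below every control, and mutant replicate 1 lay within the control range. Hoxa2 was at 8.90, 9.18 and 13.1 CPM in the controls and at 7.02, 2.41 and 5.82 CPM in the mutants of the same clusters. Hoxb3 was at 7.13, 4.94 and 5.35 CPM in the controls and at 3.46, 1.47 and 2.69 CPM in the mutants. For Hoxa2 and Hoxb3 all 3 mutants, replicate 1 among them, thus lay below all 3 controls in these sums, as did 3.79% of all genes. The sums were made from clusters chosen after their values were seen, and the levels given for that choice are control means. Such a choice can itself place mutants below controls for these genes, and its part was not tested. The sums have no test. The mix of the 6 clusters also differed, since cluster 24, which had the highest Hox level of them, made up 11.4, 9.69 and 12.8% of their cells in the controls and 8.52, 5.69 and 9.17% in the mutants, and the part of this mix in the sums was not tested. With all libraries Hoxb2 was called in none of these clusters. Without mutant replicate 1, the mutant with the highest Hoxb2, the gene was called as lower in clusters 1, 13 and 14, as given with the genotype comparison. Leaving out any other library gave 0 calls of a member, so the calls depend on which library is left out. The reason why Hoxb2 differs among the mutant libraries was not tested.

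**Figure D3:**
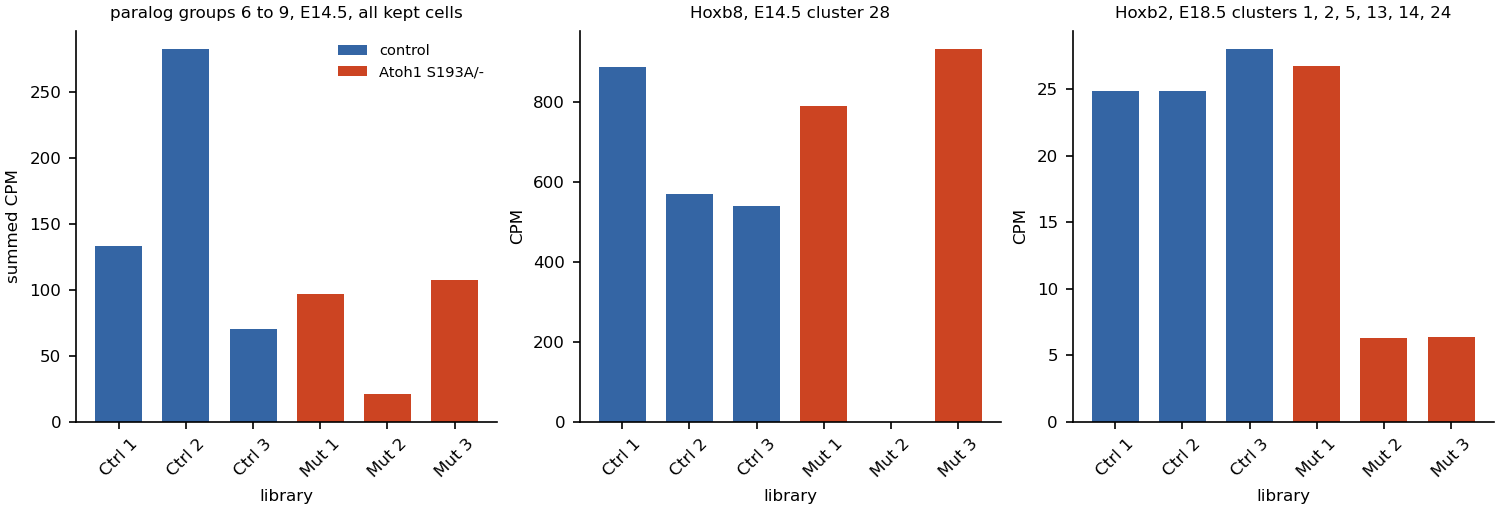
Levels (CPM) in each embryonic library, controls in blue and mutants in red: the summed paralog groups 6 to 9 in all kept E14.5 cells, Hoxb8 in E14.5 cluster 28, and Hoxb2 summed over 6 E18.5 clusters. E14.5 mutant replicate 2 is lowest in the first and second panels (21.3 CPM and 0 CPM), and E18.5 mutant replicates 2 and 3 are lowest in the last (6.30 and 6.38 CPM).

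The PN-like cells of P5 split into 7 clusters. Cluster 2, led by Nefm, Nefh and Robo2, held the highest summed level (about the same in both libraries) and had Hoxc4 at 163 and 172 CPM, Hoxb5 at 110 and 94.9 CPM and Hoxa5 at 69.3 and 56.7 CPM. Cluster 6, led by Gstm1, Cdkn1c and Prox1, was next, with Hoxc4 at 78.1 and 104 CPM and Hoxb5 at 41.2 and 39.0 CPM. Cluster 4, led by Sst and Pnoc, and cluster 7, led by Nr2f2 and Lrrn3, held the least of these genes. Their Hoxc4 levels were 8.76 and 8.23 CPM in cluster 4 and 7.30 and 5.204 CPM in cluster 7, and their Hoxb5 levels were 1.56 and 0.528 CPM in cluster 4 and 4.00 and 1.19 CPM in cluster 7. Hoxb3 differed little among them, from 79.5 and 78.3 CPM in cluster 3, led by Dmkn and Igf1, to 116 and 108 CPM in cluster 4. Hoxb2 lay between 27.4 and 45.1 CPM in all 7 clusters and both libraries. With 2 control libraries these values have no test.

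Shares of single cells were taken after every cell was thinned to 5000 UMIs, which left out 9 PN-like cells of the E14.5 controls, 25 of the E18.5 controls and 23 of the P5 libraries. A Hox UMI was found in 99.7 ± 0.08% (SD, n = 3) of PN-like cells in E14.5 controls and in 88.6 ± 2.47% in E18.5 controls. In granule-like cells of the same libraries it was found in 14.9 ± 2.63% and 5.09 ± 2.28%, and in 3.95 ± 2.04% of the E18.5 granule-like cells without the 2 clusters that held a group 2 code. Median depths per library before thinning were 16574 to 19097 UMIs in PN-like and 17600 to 21743 UMIs in granule-like cells at E14.5, and 14990 to 20385 and 14356.5 to 19123 UMIs at E18.5. The highest paralog detected in a PN-like cell was of group 5 in 46.0 ± 1.21% (SD, n = 3) of E14.5 control cells and of group 6 or higher in 12.8 ± 5.53%. At E18.5 it was group 3 in 43.7 ± 1.04% of cells, group 5 in 19.5 ± 3.12% and none in 11.4 ± 2.47%. At P5 it was group 3 in 30.8%, group 5 in 11.4% and none in 32.5% (means of 2 libraries). A Hox UMI was found in 68.5 and 66.5% of the P5 PN-like cells of replicates 1 and 2, at median depths of 28695 and 32273 UMIs before thinning. In the granule-like cells of P5, at 8797 and 9547 UMIs, it was found in 25% of 12 cells of replicate 1 and in 4.95% of 687 cells of replicate 2. In the P5 libraries Hoxc4 was found in 56.1 and 60.9% of cells with a Hoxb5 UMI and in 12.1% and 12.1% of those without one, whereas Hoxb2 was found in 15.8 and 17.1% of cells with a Hoxb3 UMI and in 15.0 and 15.2% of those without. In the E18.5 controls this pair differed more, with Hoxb2 in 42.2, 33.5 and 28.5% of cells with a Hoxb3 UMI and in 23.0, 22.2 and 22.3% of those without. In the E14.5 controls it was in 75.0, 66.8 and 68.6% of cells with a Hoxb3 UMI and in 75.2, 65.3 and 56.0% of those without.

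The first tested comparison asked how Hox transcripts changed with stage, in control libraries of E18.5 (n = 3) against E14.5 (n = 3). In the sums of all kept cells, 26 members passed the filter on low counts and all 26 fell, from group 1 to groups 8, 9 and 13. Over all genes tested 45.7% were called and 22.9% were called lower, with edgeR's quasi-likelihood test, a Benjamini-Hochberg false discovery rate (FDR) under 0.05 and an absolute log2 fold change over 0.25. The FDR of the 26 members ran from 0.000138 to 0.017, and their median log2 fold change was -4.54 against 0.00 over all genes tested. Granule-like cells, which hold little Hox RNA, were 7.04 to 24.2% of kept cells in E14.5 controls and 61.3 to 70.4% in E18.5 controls. In such sums, fewer cells of a type and less RNA per cell cannot be told apart.

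Groups 1 to 3 have their rostral limits within the hindbrain. Hoxb1, the marker gene of rhombomere 4, was at 0.133, 0.273 and 0.122 CPM in E14.5 control replicates 1, 2 and 3 and at 0.00993, 0.0546 and 0.0235 CPM in those of E18.5. It was thus low at E14.5 already. Hoxd1 stood at 0.250, 0.273 and 0.148 CPM at E14.5 and held 1 UMI in the 3 E18.5 libraries together. Hoxa2 was at 93.2, 47.8 and 53.2 CPM and then at 9.43, 10.6 and 13.96 CPM, a log2 fold change of -2.58 ± 0.26 (SE). Its paralog Hoxb2 was at 160, 106 and 90.8 CPM and then at 14.2, 13.9 and 18.4 CPM (-3.01 ± 0.21). Group 3 genes act in the caudal rhombomeres, and among them Hoxb3 fell least of all 26 members, from 152, 130 and 110 CPM to 28.03, 30.4 and 50.5 CPM (-1.93 ± 0.22). Hoxa3 was at 59.9, 42.4 and 38.2 CPM and then at 7.82, 8.81 and 17.5 CPM (-2.12 ± 0.31). Hoxd3 was at 15.3, 11.5 and 10.0 CPM and then at 1.19, 1.023 and 2.42 CPM (-3.06 ± 0.32).

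Groups 4 and 5 have their rostral limits in the caudal hindbrain. Hoxa4 was at 60.3, 51.7 and 46.2 CPM in the E14.5 controls and at 5.12, 4.65 and 9.63 CPM in the E18.5 controls (-3.11 ± 0.27). Hoxb4 was at 112, 122 and 73.2 CPM and then at 6.36, 5.197 and 11.3 CPM (-3.83 ± 0.31). Hoxc4 was at 123.5, 133 and 95.6 CPM and then at 10.5, 10.5 and 24.9 CPM (-3.02 ± 0.34). Hoxa5, the most abundant member at E14.5, was at 216, 234 and 168 CPM and then at 22.6, 18.4 and 49.2 CPM (-2.86 ± 0.35). Hoxb5 was at 121, 144 and 84.4 CPM and then at 8.05, 6.33 and 18.1 CPM (-3.51 ± 0.40). Hoxc5 was at 33.3, 40.4 and 20.7 CPM and then at 0.665, 0.832 and 1.63 CPM (-4.99 ± 0.38), a larger log2 fold change than that of its neighbor Hoxc4. Control replicate 3 was the highest of the E18.5 libraries for every one of these 6 genes. Of the pair of Hoxd4 rows, ENSMUSG00000115956 was called and was low at both stages, at 0.467, 0.701 and 0.339 CPM and then at 0.00993, 0.0136 and 0.0470 CPM.

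Groups 6 and above belong to the spinal cord and the most caudal hindbrain, and they varied most between libraries. Hoxa6 was at 4.60, 6.81 and 2.93 CPM at E14.5 and at 0.0695, 0.0546 and 0.305 CPM at E18.5 (-5.13 ± 0.59). Hoxb6 was at 34.0, 46.6 and 14.6 CPM and then at 0.248, 0.396 and 1.62 CPM (-5.48 ± 0.71). Hoxc6 was at 13.7, 45.5 and 10.7 CPM and then at 0.0794, 0.0682 and 0.317 CPM (-7.31 ± 0.81). E14.5 control replicate 2 was the highest for all 3, as it was for the next genes. Hoxa7 was at 10.8, 41.8 and 8.27 CPM and then at 0.0397, 0.0546 and 0.223 CPM (-7.67 ± 0.91). Hoxb7 was at 16.8, 34.8 and 9.80 CPM and then at 0.109, 0.136 and 1.12 CPM (-5.58 ± 0.85). Hoxb8 was at 49.7, 79.7 and 20.2 CPM and then at 0.387, 0.314 and 2.38 CPM (-5.68 ± 0.83). Hoxc8, which sets identities of brachial and thoracic levels, was at 0.0333, 15.9 and 1.82 CPM at E14.5, so that 1 library carried most of it, and at 0, 0 and 0.117 CPM at E18.5. Hoxd8 was at 0.133, 1.08 and 0.148 CPM and then at 0.0298, 0 and 0.0117 CPM. Hoxb9, Hoxa9 and Hoxd13 were low throughout, with Hoxb9 at 2.80, 6.80 and 1.30 CPM, Hoxa9 at 0.367, 2.68 and 0.548 CPM and Hoxd13 at 0.15, 0.299 and 0.174 CPM at E14.5. At E18.5 at most 1 of the 3 libraries had a UMI of Hoxa9 or of Hoxb9. Over the 3 libraries of each stage Hoxa9 held 399 and then 1 UMI, a ratio of 354 per UMI sequenced (95% counting interval 63.2 to 14022), or of 126 without E14.5 control replicate 2, which held 314 of the UMIs, and Hoxd13 held 64 and then 2 UMIs, a ratio of 28.4 (7.55 to 240).

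The same comparison within PN-like cells, added after the data were seen, takes the shares of the granule-like and unnamed clusters out of the sums. Whether the PN-like class also holds neurons of other precerebellar nuclei was not tested, and their shares would remain in the sums. The PN-like class itself was made of different states at each stage. The E14.5 class included cluster 23, led by Ccnd1, and cluster 0, with Atoh1 among its leading genes. The clusters of E18.5 were led by Crabp1 and Robo3, by Cntnap5a and Lmo4 or by Cadm2 and Rnf152. In the class sums, a change of states and a change within a state cannot be told apart. Clusters led by Crabp1 and Robo3 were present at both stages, with a summed Hox level of 3140 ± 196 CPM and 3335 ± 535 CPM (SD, n = 2 each) in E14.5 clusters 1 and 9 and of 1549 ± 149 CPM (n = 3) in E18.5 cluster 21. These cluster values have no test. All 19 members that passed the filter were called as lower at E18.5 (59.4% of all genes were called and 29.3% were called lower), with a median log2 fold change of -2.59. Hoxb3 fell least, from 418, 418 and 377 CPM to 285, 262 and 233 CPM (-0.75 ± 0.09). In the clusters led by Crabp1 and Robo3, by contrast, Hoxb3 was at 582 and 543 CPM in E14.5 cluster 1, at 494 and 593 CPM in cluster 9 and at 732, 662 and 715 CPM in E18.5 cluster 21, so that every E18.5 control was above the E14.5 controls there. Hoxa3 was at 173, 133 and 132 CPM and then at 80.3, 75.5 and 77.1 CPM (-1.02 ± 0.10), and Hoxa2 at 244, 165 and 172 CPM and then at 79.8, 76.8 and 54.2 CPM (-1.58 ± 0.17). Hoxb2 fell further, from 319, 238 and 244 CPM to 87.0, 73.3 and 57.3 CPM (-1.996 ± 0.154).

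Of groups 4 and 5, Hoxa5 was at 478, 593 and 489 CPM in PN-like cells of the E14.5 controls and at 179, 150 and 142 CPM in those of E18.5 (-1.85 ± 0.12). Hoxc4 went from 338, 348 and 325 CPM to 99.9, 91.4 and 103 CPM (-1.89 ± 0.09). These 2 genes and Hoxa4 (157, 122 and 156 CPM, then 46.9, 40.6 and 41.2 CPM, -1.87 ± 0.11) moved by nearly equal amounts. Hoxb5 went from 191, 290 and 181 CPM to 58.2, 50.4 and 47.4 CPM (-2.20 ± 0.18), and Hoxb4 from 313, 428 and 260 CPM to 56.6, 43.5 and 41.7 CPM (-2.94 ± 0.19). Hoxc5 went from 92.6, 125 and 71.7 CPM to 5.92, 6.62 and 5.58 CPM (-4.12 ± 0.22). Hoxd3, at 46.1, 37.4 and 37.4 CPM and then at 12.6, 8.78 and 10.6 CPM, had a log2 fold change of -2.02 ± 0.14. The 6 members called from groups 6 to 8 all stood at no more than 0.637 CPM in every E18.5 control library. Of these, Hoxb6 was at 27.9, 85.2 and 16.0 CPM at E14.5, Hoxb8 at 16.6, 88.0 and 11.1 CPM and Hoxc6 at 9.23, 38.4 and 11.1 CPM. Hoxa7 held 729 UMIs over the 3 E14.5 control libraries and 0 over those of E18.5, so that it was at least 133-fold higher at E14.5 when 3 counts over the group are taken as the limit of a count of 0. Its levels at E14.5 were 1.55, 29.0 and 5.33 CPM in control replicates 1, 2 and 3, and without replicate 2, which held 571 of the UMIs, the bound was 42.5-fold.

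At P5 only PN were dissected, so that stage and dissection cannot be told apart, and the 2 libraries were not tested against the others. The PN-like cells held Hoxb3 at 100 and 89.9 CPM, Hoxc4 at 61.2 and 64.9 CPM, Hoxb5 at 36.3 and 30.2 CPM and Hoxb2 at 35.2 and 37.0 CPM in the 2 libraries. Hoxa5 was at 22.2 and 19.9 CPM and Hoxb4 at 15.0 and 15.4 CPM. The order of the levels thus went from Hoxa5 first at E14.5 to Hoxb3 first at E18.5 and P5, with Hoxc4 ahead of Hoxa5 in both P5 libraries but behind it in every control at E14.5 and E18.5. All 6 genes were lower in both P5 libraries than in any E18.5 control. In the sums of all kept P5 cells Hoxb1 was at 0.886 and 0.825 CPM, above the 0.00993 to 0.0546 CPM of the E18.5 controls.

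**Figure D4:**
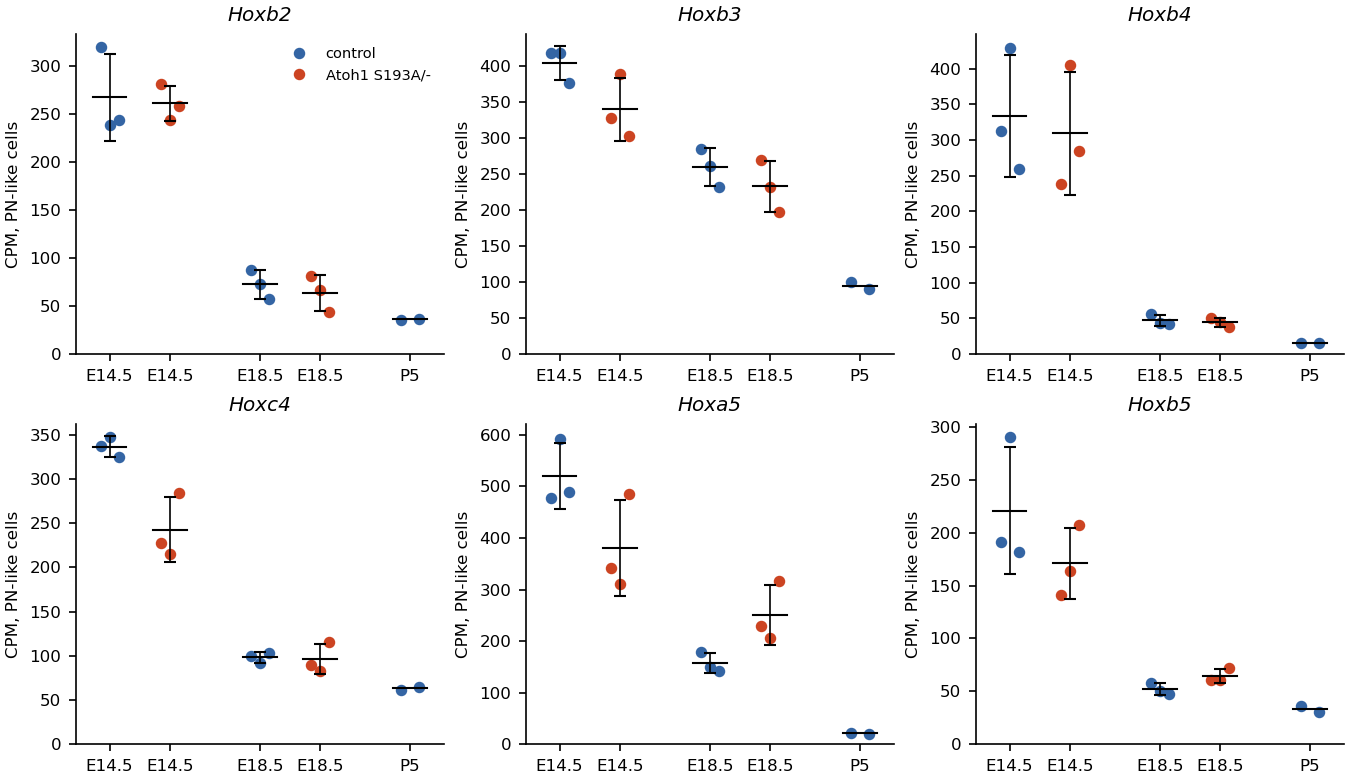
Level (CPM) of Hoxb2, Hoxb3, Hoxb4, Hoxc4, Hoxa5 and Hoxb5 in PN-like cells of each library, by stage and genotype, 1 point a library. Horizontal lines give the mean and bars the SD where a group has 3 libraries. Levels are lowest at P5 for all 6 genes. The E14.5 mutants lie below the E14.5 controls for Hoxc4, as for 9.82% of all genes. The E18.5 mutants lie above the E18.5 controls for Hoxa5 and Hoxb5, as for 5.58% of all genes.

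The second question was whether the S193A allele changed the members. In the sums of all kept cells at E14.5, edgeR's quasi-likelihood test called 0 of the 26 members tested and 0% of all genes. At an unadjusted p under 0.05 there were 2 members, and DESeq2 also called 0, where it called 2.99% of all genes. The share of all genes at an unadjusted p under 0.05 is not given, here or below. Counts of members at that limit are therefore not read as a result. The log2 fold changes of mutant against control leaned downward, with 24 members lower, 2 higher and a median of -0.25 against 0.01 over all genes. Without mutant replicate 2 there were 23 lower and 3 higher, with a median of -0.35. Only Hoxc4 and Hoxa9 had all 3 mutants below all 3 controls, which 5.51% of all genes also showed. For Hoxc4 the difference was -0.45 ± 0.13 (SE, FDR 0.339). With litter as a block, Hoxb3 was called as lower (-0.26 ± 0.06, FDR 0.0323), in a fit that called 13.9% of all genes. At E18.5, 0 of 17 members were called, with 0 at an unadjusted p under 0.05 and 0% of all genes, and DESeq2 called 0 with 2 members at an unadjusted p under 0.05 (0.131% of all genes).

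In PN-like cells at E14.5, Hoxc4 was the 1 member of 22 that was called. It stood at 338, 348 and 325 CPM in control replicates 1, 2 and 3 and at 227, 216 and 285 CPM in mutant replicates 1, 2 and 3. Every mutant lay below every control, as in 9.82% of all genes, and the log2 fold change was -0.52 ± 0.12 (FDR 0.0454). Of all genes 6.40% were called and 1.32% were called lower. Of the 22 members, Hoxc4 included, 20 were lower, with a median of -0.47, and without mutant replicate 2 it was 22 of 23, with a median of -0.42 and 0 called. Hoxa5 was at 478, 593 and 489 CPM in controls and at 343, 312 and 486 CPM in mutants (-0.49 ± 0.18), where mutant replicate 3 overlapped the controls. Hoxb3 was at 418, 418 and 377 CPM and at 329, 389 and 303 CPM (-0.29 ± 0.11). Hoxb2, at 319, 238 and 244 CPM and at 280, 244 and 258 CPM, differed by less than the spread (-0.07 ± 0.12), as did Hoxb4, at 313, 428 and 260 CPM and at 239, 405 and 284 CPM (-0.15 ± 0.23). Hoxb5 was at 191, 290 and 181 CPM and at 141, 164 and 208 CPM (-0.41 ± 0.21), and Hoxc5 at 92.6, 125 and 71.7 CPM and at 64.0, 64.7 and 76.2 CPM (-0.54 ± 0.19). Both groups overlap for these last 2 genes.

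The call for Hoxc4 was narrow. It was lost when any 1 of the libraries other than mutant replicate 3 was left out and, within 1 Cell Ranger version, which leaves 1 control library against 3 mutants, the difference was -0.49 ± 0.19 (FDR 0.246). DESeq2 called Hoxc4 (-0.53 ± 0.13) and Hoxc5 (-0.56 ± 0.20) with 11.3% of all genes. With litter as a block, 3 members were called as lower, Hoxc4 (-0.53 ± 0.09), Hoxb3 (-0.30 ± 0.06) and Hoxa5 (-0.51 ± 0.15), in a fit that called 22.8% of all genes. The share of cluster 23, which had the lowest Hox level of the PN-like clusters, moved with genotype. It was 8.0, 11.0 and 5.19% of PN-like cells in control replicates 1, 2 and 3 and 26.5, 32.2 and 29.1% in the mutants. Without cluster 23, in a fit added after the data were seen, 0 of 20 members and 0% of all genes were called, with 0 members at an unadjusted p under 0.05, and the Hoxc4 difference was -0.18 ± 0.12 (FDR 0.998). With litter as a block as well, again 0 were called (0.247% of all genes) and Hoxc4 was at -0.19 ± 0.10 (FDR 0.451). DESeq2 was not run on this subset.

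At E14.5, 23 single clusters were fitted, and members passed the filter in 22 of them. Of the 243 pairs of a member and a cluster 0 were called (0.00488% of all pairs of a gene and a cluster). At an unadjusted p under 0.05 there were 28, and the share of all pairs at that limit is not given. DESeq2 called 0 (0.0484% of all pairs). With litter as a block 6 pairs were called, all lower in mutants, in a fit that called 0.422% of all pairs. They were Hoxb2 in cluster 3 (-0.52 ± 0.11), Hoxa6 and Hoxb6 in cluster 8 (-1.38 ± 0.24 and -1.15 ± 0.19), Hoxb8 and Hoxb6 in cluster 12 (-4.23 ± 0.53 and -1.84 ± 0.31) and Hoxa5 in cluster 14 (-1.07 ± 0.15). Without mutant replicate 2, in a fit added after the data were seen that leaves 2 litters with both genotypes, the calls in clusters 8 and 12 were lost (FDR 0.105 to 0.98), and Hoxb2 in cluster 3 (-0.72 ± 0.12) and Hoxa5 in cluster 14 (-1.17 ± 0.22) were called. That fit called 25 of 266 pairs, 17 of them higher and 8 lower in mutants, and 0.966% of all pairs of a gene and a cluster. It thus called more with fewer libraries, and control replicate 2 had no littermate in it. Its calls therefore do not show that a difference holds without mutant replicate 2. In cluster 4, the PN-like cluster with most Hoxa5, the gene was at 865, 1211 and 685 CPM in controls and at 706, 1684 and 991 CPM in mutants, so that the groups overlapped. Mutant replicate 2 held 29 cells of that cluster.

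Paralog groups 6 to 9 at E14.5 were affected by the library that stood apart. Their sum in all kept cells was 133, 282 and 70.4 CPM in control replicates 1, 2 and 3 and 97.1, 21.3 and 107 CPM in mutant replicates 1, 2 and 3. Hoxb8 was at 49.7, 79.7 and 20.2 CPM in the controls and at 37.5, 2.18 and 35.9 CPM in the mutants, and in cluster 28 it was at 888, 570 and 539 CPM and at 790, 0 and 932 CPM. Mutant replicate 2 held 124 cells of cluster 28, and Hoxb8 had no UMI in them, a count of 0 that allows up to 3 UMIs. After thinning, 39.3% of its cells in cluster 28 had any Hox UMI, against 64.3 to 87.3% in the other E14.5 libraries. Hox-positive cells thus remained in cluster 28 of this library, without a UMI of Hoxb8. Groups 6 to 9 together held 12 UMIs there, 6.34 CPM, against 957 to 1654 CPM in the other E14.5 libraries. Whether cells with a caudal code were fewer or held less of it was not tested. Without that library the mutants lay within the control range for the sum and for Hoxb8 in all kept cells. The cause was not tested.

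In PN-like cells at E18.5, 0 of 11 members were called (0.0155% of all genes), with 4 at an unadjusted p under 0.05. Hoxa5 was at 179, 150 and 142 CPM in control replicates 1, 2 and 3 and at 230, 207 and 317 CPM in the mutants, so that every mutant lay above every control (0.68 ± 0.15, FDR 0.863). DESeq2 called this 1 member (0.68 ± 0.14, FDR 0.0022) with 0.0774% of all genes, and so did edgeR with litter as a block (0.68 ± 0.11, FDR 0.0135) with 0.465%. Hoxb5, at 58.2, 50.4 and 47.4 CPM and at 61.0, 60.5 and 71.6 CPM, and Hoxc5, at 5.92, 6.62 and 5.58 CPM and at 8.79, 6.90 and 10.6 CPM, also had all mutants above all controls, as 5.58% of all genes did. Hoxb3, at 285, 262 and 233 CPM and at 269, 232 and 198 CPM, and Hoxc4, at 99.9, 91.4 and 103 CPM and at 89.9, 83.0 and 115 CPM, overlapped between genotypes. Cluster 22, which held most of the Hoxa5, was 11.6, 7.97 and 10.4% of PN-like cells in controls and 9.95, 11.9 and 18.0% in mutants. Inside it Hoxa5 was at 1042, 1281 and 871 CPM and at 1551, 1185 and 1327 CPM.

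At E18.5, 24 single clusters were fitted, and members passed the filter in 11 of them. Of the 59 pairs of a member and a cluster 0 were called (0.108% of all pairs). At an unadjusted p under 0.05 there were 15, and the share of all pairs at that limit is not given. DESeq2 called 0 (0.140% of all pairs). Without mutant replicate 1, Hoxb2 was called as lower in clusters 1 (-2.18 ± 0.21), 13 (-1.91 ± 0.26) and 14 (-2.75 ± 0.36). These were 3 of 68 pairs of a member and a cluster, in a fit that called 0.0791% of all pairs. Leaving out any other library gave 0 calls of a member. With litter as a block Hoxb2 in cluster 14 (-1.15 ± 0.25) and Hoxc4 in cluster 21 (-1.38 ± 0.27) were called, with 0.608% of all pairs.

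Whether the genotype difference itself changed between stages was tested as an interaction. In all kept cells 0 of 26 members were called (0% of all genes), with 0 at an unadjusted p under 0.05 and 0 by DESeq2 (0.45% of all genes). In PN-like cells, in a fit added after the data were seen, 0 of 20 were called (1.29% of all genes), with 5 at an unadjusted p under 0.05, and without E14.5 mutant replicate 2 it was 0 of 22. The lowest FDR for a difference in the mutant effect, E18.5 minus E14.5, was that of Hoxa5 (1.19 ± 0.27 on the log2 scale, FDR 0.0554). DESeq2 called Hoxa5 and Hoxc5 with 3.84% of all genes, and with litter as a block Hoxa4, Hoxa5 and Hoxc4 were called, where 12.5% of all genes were. Without E14.5 cluster 23, edgeR called 0 of 20 members (0% of all genes), with 2 at an unadjusted p under 0.05, and 0 with litter as a block (0.00706% of all genes). The Hoxa5 difference was then 0.82 ± 0.27 (FDR 1.00) and 0.82 ± 0.24 with the block (FDR 0.301).

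The share of kept cells with a Hox UMI, thinned to 5000 UMIs, was 53.1 ± 2.91% (SD, n = 3) in E14.5 controls and 48.9 ± 4.60% in E14.5 mutants (exact two-sided permutation test, p = 0.2). The difference, mutant minus control, was -4.27 percentage points, or -1.82 without mutant replicate 2. At E18.5 it was 18.2 ± 6.67% in controls and 14.4 ± 5.72% in mutants (exact permutation test, p = 0.6). The smallest p that 3 libraries against 3 can give is 0.1, so neither test could have passed 0.05. Thinning left out 325 to 412 cells a group. Unthinned shares were 68.7 and 65.7% at E14.5 and 27.6 and 21.5% at E18.5 in controls and mutants.

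Genes that work with or upstream of Hox genes were followed by lists, in the fits where 22.9% of all genes were lower and 22.7% higher at E18.5 in all kept cells, and 29.3% lower and 30.1% higher in PN-like cells. TALE homeodomain proteins are the DNA-binding partners of Hox proteins. In all kept control cells 6 of 9 were lower at E18.5, among them Meis2 (-3.69 ± 0.27) and Pbx3 (-1.56 ± 0.16), 1 was higher (Pknox1), and the list's median was -0.64 against 0.00 over all genes. Of 14 upstream and retinoid genes 8 were lower and 0 higher, with a median of -1.22, among them Crabp1, a retinoic acid binding protein that also helped to choose the PN-like class (-4.10 ± 0.13). Of 17 Polycomb and Trithorax genes, which silence Hox clusters or keep them open, 4 were higher, a share near that of all genes, among them the Trithorax gene Kmt2a (0.72 ± 0.09) and the Polycomb gene Suz12 (0.76 ± 0.09), and 1 was lower. Of 5 guidance genes 2 were higher and 2 lower. All 6 noncoding genes of the Hox clusters that were tested were lower, with a median of -3.58, such as Hoxb3os (-2.98 ± 0.21) and Hoxb5os (-5.52 ± 0.58).

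Within PN-like cells 6 of 9 TALE genes were lower at E18.5, Meis2 at -1.67 ± 0.13 and Pbx3 at -1.87 ± 0.10 among them, and all 4 tested noncoding genes lower, Hoxb3os at -2.33 ± 0.14 among them. Upstream and retinoid genes were lower for 8 of 11 and higher for 3. Polycomb and Trithorax genes were lower for 7 of 17, such as Ezh2, the methyltransferase of Polycomb complex 2 (-1.29 ± 0.12), and higher for 3, Kmt2a at 0.67 ± 0.08 among them. Guidance genes were lower for 3, including Robo3 (-2.001 ± 0.298) and Unc5b (-0.78 ± 0.18), and higher for 1, of 5. Between genotypes no gene of these lists was called in all kept cells at either stage, where 0% of all genes were called. In PN-like cells at E14.5 Suz12 was higher (0.46 ± 0.11, FDR 0.0454) and Unc5b, a netrin receptor of PN neurons, was lower (-0.69 ± 0.15, FDR 0.0368) in mutants, in the fit that called 6.40% of all genes, 5.08% higher and 1.32% lower. Without cluster 23 neither was called, in a fit that called 0% of all genes. Suz12 was then at 0.095 ± 0.097 and Unc5b at -0.40 ± 0.17 (FDR 0.998 for both). In PN-like cells at E18.5 none was called, where 0.0155% of all genes were.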

How the data were processed

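Single-cell libraries (10x Genomics 3′ v3.1) were made from sorted tdTomato+ cells, 12 from embryonic hindbrain and 2 from P5 PN. The deposited values were counts of UMIs per gene and barcode, which the authors made with Cell Ranger on mm10 with a reporter sequence added, and per the file headers 2 E14.5 control libraries were made with version 3.1.0 and the others with 5.0.1. Every sample column was mapped, and 0 were left unused. Barcodes with at least 1000 genes and under 5% mitochondrial UMIs were kept, and within each library the 7.5% with the highest simulated-doublet scores were removed. Cells were clustered per stage in scanpy 1.11.5 (Leiden resolution 1.0) without Hox genes. PN-like and granule-like classes came from other markers, with limits on those markers set after the data were seen, and many of the markers were found on these libraries.

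Counts were summed per library and class or cluster and tested with edgeR 4.0.16 (TMM, filterByExpr with a minimum count of 10, quasi-likelihood F test) under R 4.3.3, with Benjamini-Hochberg adjustment over all genes tested. Calls required an adjusted p below 0.05 (FDR) together with a log2 fold change beyond 0.25 in either direction. The SE given with an edgeR log2 fold change is its absolute value divided by the square root of the F statistic. It is thus derived from the test, whereas DESeq2 reports an SE of its own. DESeq2 1.42.0, another filter, another normalization, left-out libraries, litter as a replicate block, 1 Cell Ranger version, other cell filters and other clusterings were alternatives. The other cell filters were applied only to fits and shares of all kept cells. Clusters were fitted where at least 20 cells per library were present. Embryonic control and mutant libraries with the same replicate number were littermates, and their deviations from the group means correlated at r = 0.62 to 0.78 at E14.5 and 0.60 to 0.81 at E18.5 in all kept cells and at 0.50 to 0.66 and 0.15 to 0.55 in PN-like cells. Each library was 1 embryo or, at P5, a pool, so n counts libraries. Scripts were tested on simulated counts with known fold changes.

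The members and lists were chosen with earlier results of these data known. Library values are given in full for members called in a comparison, for the 3 most abundant members at each stage and for Hoxb2, Hoxb3, Hoxb4, Hoxb5, Hoxa5 and Hoxc4, and other members by ranges or counts. The stage and interaction comparisons in PN-like cells and the fits without cluster 23 were added after the data were seen. Kept UMIs per library set the precision, and intervals or lower bounds on rare members cover counting error only. Single values of some genes are not reported here.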

Additional observations from a re-analysis of the deposited data

Results flagged for a closer look

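In PN-like cells the mutant effect of Hoxa5 differed between E18.5 and E14.5 with litter as a block and with DESeq2, by a test of the difference itself. That of Hoxa4 and Hoxc4 differed with the block only, and that of Hoxc5 with DESeq2 only. Without a block, edgeR called 0 of 20 members and 1.29% of all genes. Values are the E18.5 mutant effect minus the E14.5 mutant effect on the log2 scale. With litter as a block the difference was 0.45 for Hoxa4 (edgeR FDR 0.00843), 1.19 for Hoxa5 (FDR 0.0127) and 0.50 for Hoxc4 (FDR 0.0336), 3 of 20 members in a fit that called 12.5% of all genes, so that the count lies near that share. With DESeq2 it was 1.20 for Hoxa5 (FDR 0.00141) and 1.13 for Hoxc5 (FDR 0.00943), where 3.84% of all genes were called. The samples of Hoxa5 lay with every mutant above every control at E18.5, as those of 5.58% of all genes did. At E14.5 mutant replicate 3 lay among the controls. Cluster 23, the PN-like cluster with the lowest Hox level, was 5.19 to 11.0% of E14.5 control and 26.5 to 32.2% of E14.5 mutant PN-like cells. Without it edgeR called 0 of 20 members, with and without the block, and the block gave 0.19 for Hoxa4, 0.82 for Hoxa5, 0.16 for Hoxc4 and 0.79 for Hoxc5. DESeq2 was not run without that cluster. These comparisons were added after the data were seen.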

How the results depend on the processing

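The stage difference kept its direction and its calls best. In all kept cells 25 to 27 members were called under 12 of the alternatives, all lower, and 12 of 12 tested were called with the filter on genes found in at least 10% of cells, which tests fewer genes and called 5306 of 10291. In PN-like cells 19 to 20 were called, and that fit was not rerun with the finer clustering. Fits within PN-like cells or single clusters, of stage or genotype, were not rerun with other cell filters. The genotype counts in all kept cells stayed at 0 except for 1 member with the replicate block at E14.5. In PN-like cells at E14.5, the count of 1 became 2 with DESeq2, 3 with the replicate block, 0 with the 10% filter, 0 within 1 Cell Ranger version (1 control library) and 0 to 1 when 1 library was left out. Without cluster 23 it was 0, also with the replicate block. In PN-like cells at E18.5 the count of 0 became 1 with DESeq2, 1 with no filter on low counts (9 of 21180 genes called) and 1 with the replicate block. The interaction in PN-like cells went from 0 to 2 with DESeq2 and to 3 with the replicate block, and was 0 without cluster 23, with or without the block. Within single clusters, the replicate block gave 6 pairs at E14.5, 25 there without mutant replicate 2, and 2 at E18.5, and leaving out 1 library gave 0 to 3 at E18.5, the 3 without mutant replicate 1. The block changed no other call. The difference in the share of cells with a Hox UMI, mutant minus control, was between -6.38 and -1.82 percentage points at E14.5 when 1 library was left out, smallest without mutant replicate 2, and -1.18 within 1 Cell Ranger version. At E18.5 it was between -6.56 and 0.0523 percentage points when 1 library was left out, and it turned to 0.0523 without control replicate 3. The cause of these changes was not tested. Low counts limit the precision for the 14 of 40 rows that had under 100 UMIs in all libraries together.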
